A study of Mus musculus with 9 samples.

Results

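The integrated stress response genes were 10 genes of the ATF4 axis and its targets, taken from the files by symbol: *Atf4*, *Ddit3*, *Ddit4*, *Trib3*, *Chac1*, *Asns*, *Atf3*, *Ppp1r15a*, *Eif2ak3* and *Sesn2*. All 10 symbols were found among the 55335 entries of each library, and *Ddit3* stood on 2 entries. RNA came from pools of mouse embryos at the 8-cell stage, 3 libraries in each of 3 groups. The embryos were ICR embryos made by in vitro fertilization and grown in KSOM, and every group had an siRNA injected at the zygote stage. Control received a nontargeting siRNA, MFN1-KD an siRNA against *Mfn1*, a GTPase of mitochondrial fusion, and H3.3-KD siRNAs against *H3f3a* and *H3f3b*, which both encode the histone variant H3.3. The labels give 5 to 10 embryos for a group. The study calls the libraries of a group biological replicates, and the labels do not tie them to separate injections, so the p-values measure the spread between these libraries.

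The integrated stress response is a program that cells start when amino acids run short, proteins misfold in the endoplasmic reticulum, heme is lacking or mitochondria are disturbed. Kinases, among them PERK (encoded by *Eif2ak3*), phosphorylate the translation initiation factor eIF2alpha, which lowers general protein synthesis while the mRNA of the transcription factor ATF4 is translated better. ATF4 then acts with partners such as CHOP (*Ddit3*), ATF3 and C/EBP proteins on genes for amino acid supply, redox balance and growth control, and the phosphatase subunit GADD34 (*Ppp1r15a*) closes the loop by dephosphorylating eIF2alpha. Much of this control is exerted on translation, which RNA levels do not show. In preimplantation embryos the pathway is known as a response to culture and metabolic stress.

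Levels are given in FPKM, in which the fragments of a gene are divided by its length and by the library's total. The FPKM of a library summed to 1113563 to 1331977 in control, 1130408 to 1203650 in MFN1-KD and 933452 to 968604 in H3.3-KD. Levels are therefore only roughly on a common scale between libraries, and other scalings are given below. From 15577 to 24820 entries were above 0 in a library, with 21643 to 22507 in control, 23655 to 24820 in H3.3-KD and 15577 to 20842 in MFN1-KD, where replicate 3 was lowest. Depth is not given in the sources used here. The spacing of low values of short genes put it between 13800000 and 19400000 fragments, and since only 44.8 to 49.6% of those values lay within 0.15 of a whole fragment this is approximate and no counting interval was drawn from it. The targeted genes were lower in the groups labelled for them: *Mfn1* averaged 5.03 FPKM in MFN1-KD and 32.6 in control, *H3f3a* 149 in H3.3-KD and 1932 in control, and *H3f3b* 246 and 2988. Of 8 markers of the 8-cell embryo, 7 or 8 reached 1 FPKM in each group, but their levels differed in H3.3-KD, where limma called 5 higher (*Pou5f1*, *Klf17*, *Klf5*, *Tfap2c* and *Cdx2*) and *Dppa3* lower than control, although *Cdx2* passed the filter on low values only through H3.3-KD. Mean *Pou5f1* was 262 FPKM in H3.3-KD and 7.24 in control, and mean *Dppa3* 6889 and 12700. None of the 8 was called in MFN1-KD. Of 11 cumulus and granulosa cell markers only *Amhr2* reached 1 FPKM in any group, and *Fshr*, *Inhba* and *Cyp11a1* were at 0 in every library. The summed level of these 11 markers ranged from 16.1 to 29.8 FPKM in control, 10.3 to 19.9 in MFN1-KD and 38.4 to 67.1 in H3.3-KD, which was nearly all *Amhr2*. Both marker lists moved with the results on H3.3-KD below, and their part in them was not tested. In pooled embryos, fewer cells that express a gene and less RNA per cell cannot be told apart.

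ATF4 and its C/EBP partners are known to bind composite elements near the starts of their target genes, and ATF and CREB proteins bind the cyclic AMP response element. The window from 250 bases before to 50 bases after each RefSeq start (GRCm38.p6) was therefore read for the letters TGATGNAA, the core of the composite element, and for TGACGTCA, on both strands. The first was present in 4 of the 10 member windows and in 1304 of all 32851 windows (3.97%). The second was present in 1 of the 10 and in 588 of all windows (1.79%). These letters were not used to choose the members, but the members were chosen as genes of the ATF4 axis and its targets. The share with the composite core is therefore not independent of that choice. Because this core recurs among the members, the matches are shown as they lie on the gene's own strand, 5′ to 3′, with the matched letters in capitals:
*Asns*: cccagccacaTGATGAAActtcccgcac
*Chac1*: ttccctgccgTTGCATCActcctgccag
*Atf3*: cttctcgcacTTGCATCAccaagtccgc
*Trib3*: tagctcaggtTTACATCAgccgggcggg
*Ppp1r15a*: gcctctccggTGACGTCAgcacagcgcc
The *Asns* stretch lies at chr6:7693215-7693242 on the minus strand, and its match begins 23 bases before the start. In *Chac1* (chr2:119351039-119351066, plus strand) the match begins 193 bases before the start, and in *Atf3* (chr1:191183426-191183453, minus strand) 110 bases before it. The *Trib3* match (chr2:152344029-152344056, minus strand) begins 14 bases past the start. In *Chac1*, *Atf3* and *Trib3* the element reads in the direction opposite to the gene. The palindrome of *Ppp1r15a* (chr7:45526263-45526290, minus strand) begins 12 bases before the start. The windows of *Atf4*, *Ddit3*, *Ddit4*, *Eif2ak3* and *Sesn2* held neither run of letters, which says nothing of elements outside the windows or written with other letters.

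**Figure D1:**
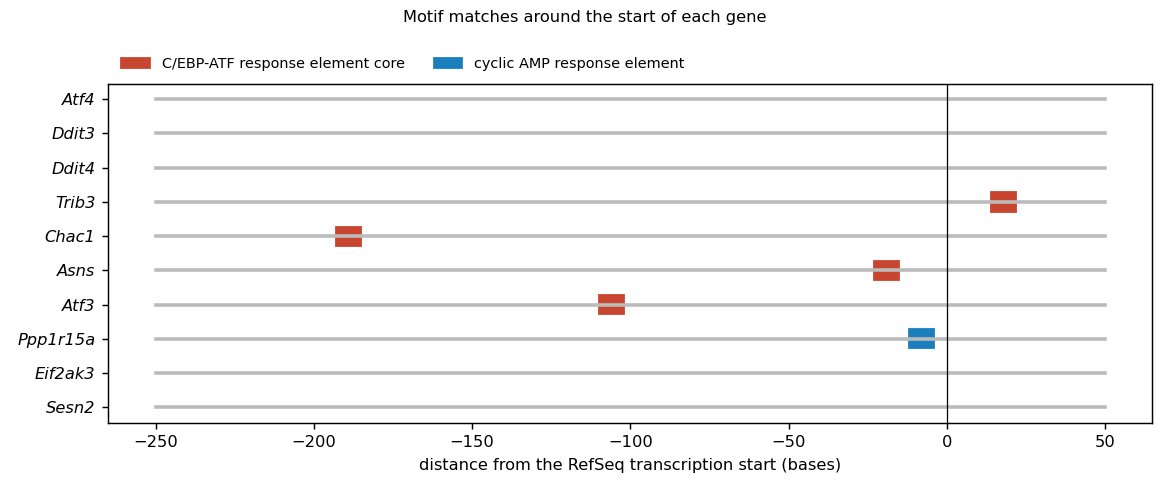
Position of each match, in bases from the RefSeq start (vertical line), in the window of each of the 10 genes (grey bars, 250 bases before to 50 after). The composite element core (red) is in *Trib3*, *Chac1*, *Asns* and *Atf3*, and the cyclic AMP response element (blue) is in *Ppp1r15a*.

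In H3.3-KD embryos *Ddit4*, *Sesn2*, *Ppp1r15a* and *Trib3* rose against control, and no member fell. The first 2 of these, which encode brakes on the growth kinase complex mTORC1, went from means under 3 FPKM to means above 100 FPKM. In MFN1-KD embryos no member passed the test, and the RNA of *Atf4* itself was lower than control in all 3 libraries, at an adjusted p above the threshold. Compared directly, 6 members were higher in H3.3-KD than in MFN1-KD, the same 4 with *Atf4* and *Asns*. Against control, 21.8% of all genes tested rose and 9.12% fell with H3.3 knocked down. The direct comparison put 27.6% of them up and 11.0% down. For MFN1-KD against control the shares were only 1.15% up and 2.2% down, so the absence of members there says little about them. These calls come from a limma-trend fit to log2(FPKM + 1) of all 9 libraries over 13011 genes whose mean reached 1 FPKM, at a Benjamini-Hochberg adjusted p under 0.05. Fold changes on this scale understate the change of low genes. Of the 10 members, 9 were tested: *Chac1* was just inside the filter with a mean of 1.08 FPKM over all libraries, and *Atf3*, with 0.10, was outside it. *Chac1* averaged under 1 FPKM over control and MFN1-KD and passed only through H3.3-KD, so counts and medians are also given for the other 8.

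**Figure D2:**
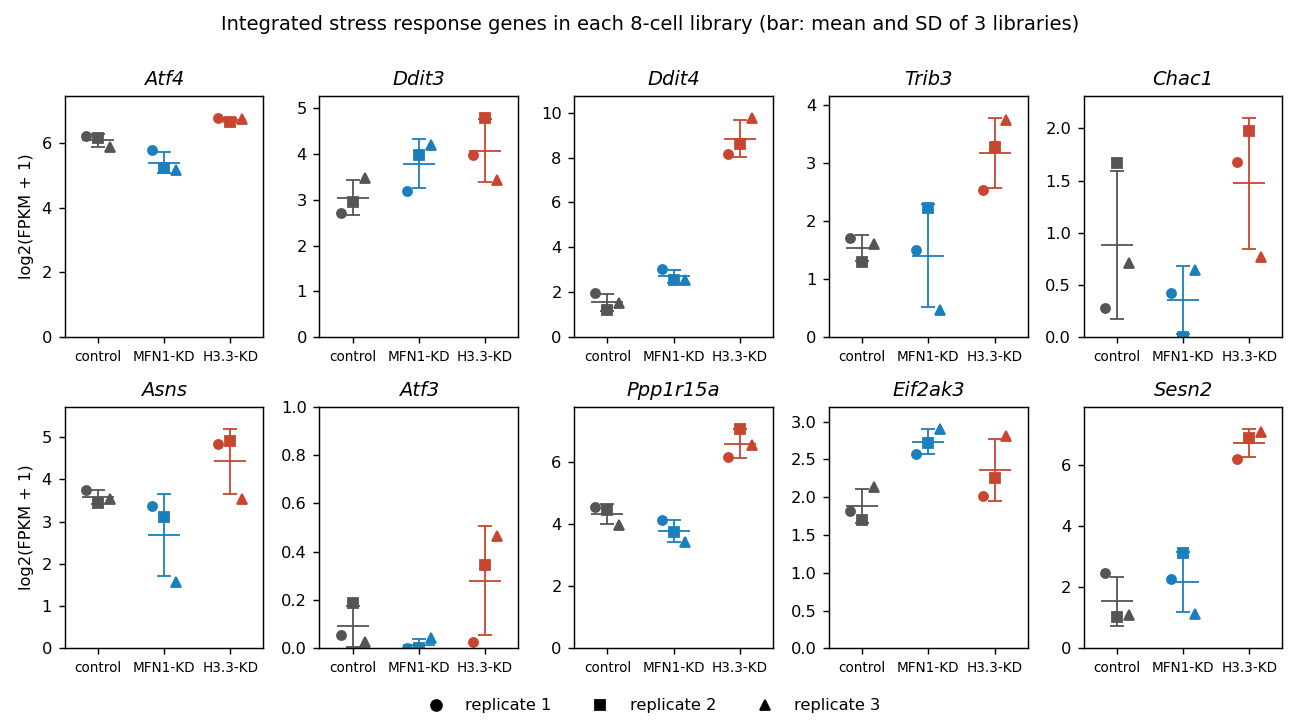
Level of each of the 10 genes as log2(FPKM + 1) in each library of control (grey), MFN1-KD (blue) and H3.3-KD (red), with a symbol for each replicate number and bars for mean and SD of 3 libraries. Each panel has its own vertical scale. *Ddit4*, *Sesn2*, *Ppp1r15a* and *Trib3* were called higher in H3.3-KD than in control, as were 21.8% of all genes tested.

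The arm that sets eIF2alpha phosphorylation was represented by a kinase and a phosphatase subunit. *Eif2ak3*, the gene of PERK, stood at 2.52, 2.25 and 3.38 FPKM in control, 3.03, 3.75 and 6.01 in H3.3-KD and 4.95, 5.58 and 6.49 in MFN1-KD. All MFN1-KD libraries were above all control libraries, while H3.3-KD overlapped both. The difference from control was 0.85 ± 0.33 (SE) on the log2 scale in MFN1-KD (limma adjusted p = 0.158) and 0.47 ± 0.33 in H3.3-KD (adjusted p = 0.300), so neither was called. *Ppp1r15a*, the gene of the stress-induced phosphatase subunit GADD34, stood at 22.7, 20.7 and 14.7 FPKM in control, 70.5, 133 and 92.1 in H3.3-KD and 16.7, 12.4 and 9.76 in MFN1-KD. Every H3.3-KD library lay above every other library. The H3.3-KD mean of 98.7 ± 31.9 FPKM (SD, n = 3) was 5.09 times the control mean of 19.4 ± 4.20, a log2 difference of 2.26 ± 0.32 (adjusted p = 6.8e-04). In MFN1-KD the log2 difference was -0.55 ± 0.32 (adjusted p = 0.330), with 1 of 3 libraries inside the control range and the others below it. *Ppp1r15a* is the member whose window holds the cyclic AMP response element printed above.

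Among the transcription factors, *Atf4*, the hub of the response, was the most abundant member in control and MFN1-KD and the third in H3.3-KD. It stood at 74.0, 69.8 and 57.1 FPKM in control, 109, 99.7 and 106 in H3.3-KD and 53.6, 36.6 and 35.0 in MFN1-KD. The groups did not overlap, and MFN1-KD, control and H3.3-KD followed in that order. Against control the log2 difference was 0.64 ± 0.23 in H3.3-KD (adjusted p = 0.0592) and -0.69 ± 0.23 in MFN1-KD (adjusted p = 0.119), and neither passed the threshold, although both had an unadjusted p under 0.05 (0.0196 and 0.0141). Between the knockdowns the difference of 1.33 ± 0.23 passed it (adjusted p = 0.0016), a ratio of means of 2.51. The difference of H3.3-KD from control passed under 5 alternatives: a mean of 10 FPKM or more (adjusted p = 0.0467), a fit of only the 6 libraries compared (0.0285), library weights (0.0099), and without MFN1-KD replicate 1 (0.0437) or 3 (0.0366). It was smaller under others: it was 0.30 with median-ratio scaling (adjusted p = 0.367) and 0.08 once the trend of values over GC content and length was removed within libraries (adjusted p = 0.806), and the direct difference fell to 0.45 (adjusted p = 0.126) with the trend removed.

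*Ddit3*, the gene of CHOP, a transcription factor tied to prolonged stress and cell death, stood at 5.55, 6.79 and 10.1 FPKM in control, 14.8, 26.8 and 9.83 in H3.3-KD and 8.07, 14.8 and 17.4 in MFN1-KD. Both knockdowns reached higher levels than control, but each had a library inside the control range. The log2 difference was 1.02 ± 0.42 in H3.3-KD (adjusted p = 0.0888) and 0.74 ± 0.42 in MFN1-KD (adjusted p = 0.323). In the reported fit *Ddit3* passed only the study's own threshold of more than 2-fold with an unadjusted p under 0.05, and only in H3.3-KD. With library weights it also passed the adjusted threshold there (difference 1.33, limma adjusted p = 0.0033). *Atf3*, a repressor and partner induced by ATF4, did not exceed 0.38 FPKM in any library, and at this level no difference was detectable. Its window carries the composite element core.

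The classic ATF4 targets did not move as a block. *Trib3*, a pseudokinase that feeds back on ATF4 and on AKT, stood at 2.28, 1.45 and 2.05 FPKM in control, 4.82, 8.68 and 12.3 in H3.3-KD and 1.84, 3.71 and 0.39 in MFN1-KD. All H3.3-KD libraries were above all others, and the MFN1-KD libraries lay on both sides of control. The rise in H3.3-KD was 1.65 ± 0.48 on the log2 scale (adjusted p = 0.0250), from a mean of 1.93 to 8.61 FPKM. It was the least secure of the called members, with an adjusted p of 0.0606 under upper-quartile scaling (difference 1.30), 0.0701 without a filter (1.65), 0.0621 with a pseudocount of 0.1 (2.03) and 0.194 after removal of the GC and length trend (0.87). Leaving out H3.3-KD replicate 2 (0.0742) or 3 (0.0919), or control replicate 1 (0.0518), 2 (0.0892) or 3 (0.0723), also ended the call, at differences of 1.37 to 1.73.

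*Asns*, asparagine synthetase, stood at 12.5, 9.89 and 10.7 FPKM in control, 27.6, 28.9 and 10.6 in H3.3-KD and 9.29, 7.63 and 1.97 in MFN1-KD. H3.3-KD replicate 3 was at the control level while the others were above it, and all MFN1-KD libraries were below control. Against control neither difference passed (0.84 ± 0.51 in H3.3-KD, adjusted p = 0.236, and -0.90 ± 0.51 in MFN1-KD, adjusted p = 0.322). Between the knockdowns *Asns* differed by 1.74 ± 0.51 (adjusted p = 0.0206). That call was lost without H3.3-KD replicate 1 (0.0724) or 2 (0.0800), under upper-quartile scaling (0.0586), with no filter (0.0637) and when only the 6 libraries compared were fitted (0.0581). Without MFN1-KD replicate 3, the library with the fewest genes above 0, the direct difference was 1.19 (adjusted p = 0.0456), and the difference of MFN1-KD from control was -0.34 in place of -0.90.

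*Chac1*, a glutathione-degrading enzyme, stood at 0.21, 2.17 and 0.64 FPKM in control, 2.20, 2.93 and 0.70 in H3.3-KD and 0.34, 0 and 0.56 in MFN1-KD. The spread within control covered more than 10-fold, and no comparison passed (0.59 ± 0.49 in H3.3-KD, adjusted p = 0.387; -0.53 ± 0.49 in MFN1-KD, adjusted p = 0.548). *Asns* and *Chac1*, like *Trib3*, hold the composite element core in the sequences above, so members with this element were found among those that passed the test in H3.3-KD and among those that did not.

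The genes that restrain mTORC1 gave the largest differences. *Ddit4* encodes REDD1, which acts through the TSC complex, and *Sesn2* encodes a leucine sensor that acts through GATOR2. *Ddit4* stood at 2.89, 1.31 and 1.88 FPKM in control, 285, 385 and 879 in H3.3-KD and 7.15, 4.87 and 4.81 in MFN1-KD. The groups did not overlap, and H3.3-KD was above control by a factor of 255 between means (516 ± 318 against 2.03 ± 0.800 FPKM, SD, n = 3). Its log2 difference of 7.28 ± 0.41 (adjusted p = 7.2e-06) was the largest of all 13011 genes tested. In MFN1-KD the mean was 5.61 ± 1.33 FPKM, a log2 difference of 1.14 ± 0.41, higher than control in 3 of 3 libraries but not past the adjusted threshold (adjusted p = 0.134). At the study's threshold *Ddit4* was the only member called in MFN1-KD. It was called there also with library weights (adjusted p = 0.0248) and under none of the other alternatives.

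*Sesn2* stood at 4.54, 1.05 and 1.15 FPKM in control, 71.3, 115 and 134 in H3.3-KD and 3.76, 7.65 and 1.20 in MFN1-KD. H3.3-KD was far above both other groups, which overlapped. The H3.3-KD mean of 107 ± 32.1 FPKM was 47.5 times the control mean of 2.25 ± 1.99, and the log2 difference of 5.17 ± 0.55 (adjusted p = 2.0e-04) ranked 8 among the genes tested. In MFN1-KD the difference was 0.63 ± 0.55 (adjusted p = 0.526). With these rises *Ddit4* and *Sesn2* went from places 7 and 6 in the order of member levels in control to places 1 and 2 in H3.3-KD, although *Sesn2*, *Atf4* and *Ppp1r15a* (107, 105 and 98.7 FPKM on average) did not differ beyond their spread. In control *Eif2ak3*, *Sesn2*, *Ddit4* and *Trib3* (2.72, 2.25, 2.03 and 1.93 FPKM) were likewise within their spread of each other. In MFN1-KD the order ran from *Atf4* (41.7) through *Ddit3* and *Ppp1r15a* (13.4 and 13.0), *Asns*, *Eif2ak3* and *Ddit4* (6.30, 5.67 and 5.61), *Sesn2* (4.20) and *Trib3* (1.98) to *Chac1* and *Atf3*.

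Read against all genes, H3.3-KD changed much of the transcriptome, and the members' counts have to be set beside that. In H3.3-KD against control, 4 of the 9 tested members were higher, where 21.8% of all genes tested were, and 0 were lower, where 9.12% were. At the study's threshold the counts were 5 higher (background 23.9%) and 0 lower (background 9.39%), the fifth being *Ddit3*. In the higher direction 6 members, *Atf4* included, had an unadjusted p under 0.05. Of all 13011 genes tested, 5472 had such a p in either direction. The median log2 difference of the 9 was 1.02 where that of all genes was 0.26, and 9 of 9 lay above the latter. Without *Chac1* the count was 4 of 8 and the median 1.33. Median-ratio scaling moved the median of all genes to -0.00 and the split of called genes from 2841 higher and 1187 lower to 2074 and 1777. It left the same 4 members called, and all 9 members kept a positive difference under each of the scalings. Removal of the GC and length trend changed this picture. *Atf4* (0.08), *Eif2ak3* (0.12) and *Chac1* (0.02) then lay below the median of all genes (0.28). *Trib3* lost its call there (limma adjusted p = 0.194), and *Ddit3* had no value.

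In MFN1-KD against control, limma called 0 members higher (background 1.15%) and 0 lower (background 2.2%). An unadjusted p under 0.05 was found for *Ddit4* and *Eif2ak3*, both higher, and for *Atf4*, lower. Such a p was common, with 3025 of all 13011 genes tested having it in either direction. At the study's threshold 1 member was higher (background 5.02%) and 0 were lower (background 9.05%). The median of the 9 was -0.13 where that of all genes was -0.08, and 4 of 9 lay above the latter. Without *Chac1* the median of the other 8 was 0.25. The sign of the median turns in the same way when any other member with a negative difference is left out, so it is not secure. Both knockdowns were set against the same control libraries, so the values above are given side by side without a measure of likeness between them.

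The direct difference of H3.3-KD from MFN1-KD is not taken against the control level, although control libraries enter the filter and the spread of the fit. It called 6 of 9 members higher (background 27.6%) and 0 lower (background 11.0%). The log2 differences were 6.14 ± 0.41 for *Ddit4*, 4.54 ± 0.55 for *Sesn2*, 2.82 ± 0.32 for *Ppp1r15a* and 1.78 ± 0.48 for *Trib3*, beside the values of *Asns* and *Atf4* above. Adjusted p-values were 1.6e-05 for *Ddit4*, 2.1e-04 for *Sesn2*, 1.5e-04 for *Ppp1r15a* and 0.0144 for *Trib3*, the last of which was 0.267 after removal of the GC and length trend. *Chac1* was at 1.12 ± 0.49 (adjusted p = 0.0920), with no overlap between the groups, *Ddit3* at 0.28 ± 0.42 (adjusted p = 0.626) and *Eif2ak3* at -0.38 ± 0.33 (adjusted p = 0.390). The median of the 9 was 1.74, where that of all genes was 0.39, and 7 of 9 lay above the latter. Without *Chac1* the count was 6 of 8 and the median 1.76. For a single gene, 3 libraries against 3 cannot give a two-sided exact permutation p under 0.10, and each pair of groups without overlap reached that value.

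**Figure D3:**
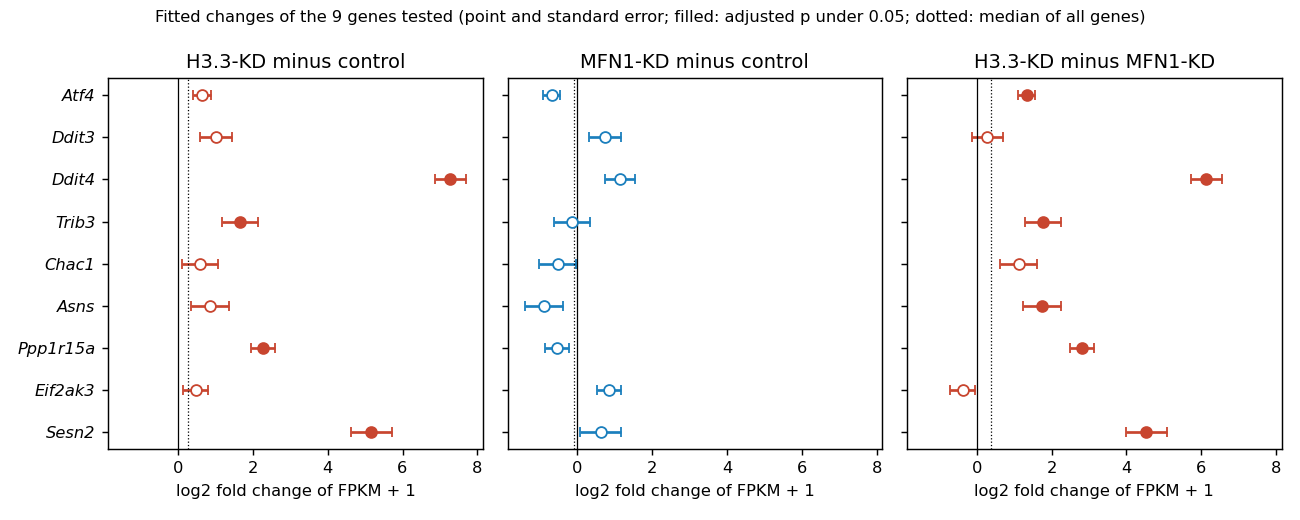
Fitted log2 fold change of FPKM + 1 (point) with its standard error (bar) for the 9 tested genes in H3.3-KD minus control, MFN1-KD minus control and H3.3-KD minus MFN1-KD. Filled points passed an adjusted p of 0.05 (4, 0 and 6 genes), the solid line is 0 and the dotted line is the median of all genes tested (0.26, -0.08 and 0.39).

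The members varied among themselves within H3.3-KD. Replicate 3 was the highest of the H3.3-KD libraries for *Ddit4*, *Sesn2*, *Trib3* and *Eif2ak3* and the lowest for *Asns*, *Ddit3* and *Chac1*. Replicate 2 was the highest for *Ppp1r15a*, *Ddit3*, *Asns* and *Chac1*. The ratio of the highest to the lowest H3.3-KD library was 1.09 for *Atf4*, 1.88 for *Sesn2*, 1.89 for *Ppp1r15a*, 2.73 for *Asns* and 3.08 for *Ddit4*. *Atf4* was thus the steadiest of the members there. In MFN1-KD, replicate 3 was the lowest for *Atf4*, *Ppp1r15a*, *Asns*, *Trib3*, *Sesn2* and *Ddit4* and the highest for *Ddit3*, *Eif2ak3* and the low genes *Chac1* and *Atf3*, and it was also the library with the fewest genes above 0.

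The calls for *Ddit4*, *Sesn2* and *Ppp1r15a* in H3.3-KD were kept under all 18 alternatives, and that for *Trib3* was lost under 9 of its 17. Across them the log2 difference from control ranged from 6.63 to 7.82 for *Ddit4*, from 4.14 to 5.78 for *Sesn2* and from 1.49 to 2.48 for *Ppp1r15a*, the lowest value in each case being the one with the GC and length trend removed. The transcripts of these 3 genes have a GC content of 57.9%, 58.7% and 55.7%, above the median of 48.9% of the genes tested. Those of *Trib3* (58.2%), *Chac1* (57.4%), *Atf4* (55.5%) and *Eif2ak3* (51.2%) were above it too, and those of *Asns* (47.7%) and *Ddit3* (45.6%) below.

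**Figure D4:**
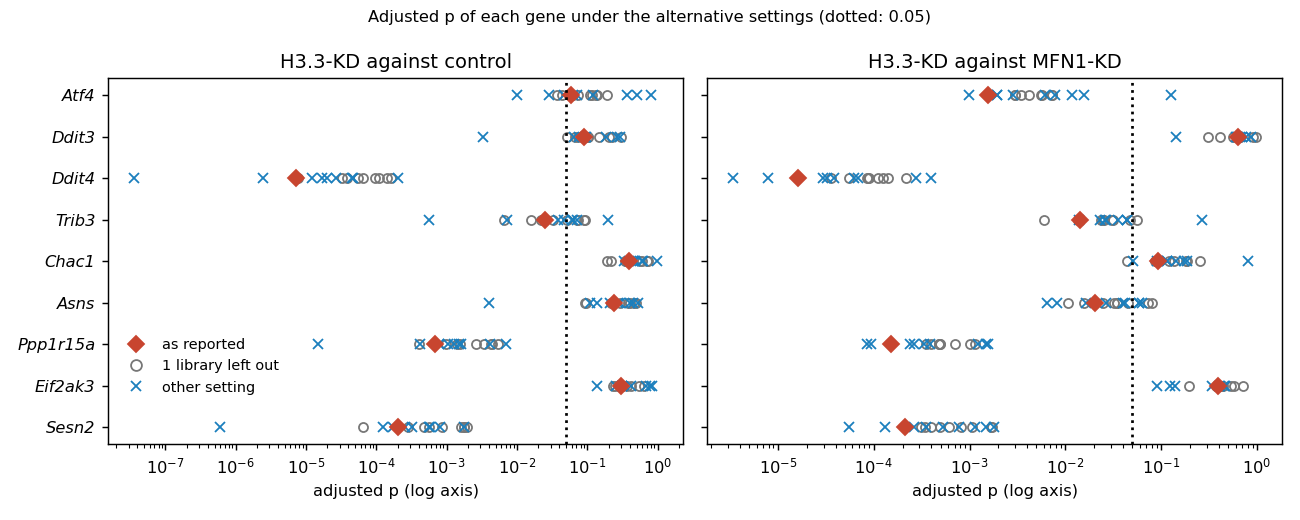
Adjusted p (log axis) of each tested gene as reported (red), with 1 library left out (grey circles) and under the other settings (blue crosses), in H3.3-KD against control and against MFN1-KD. *Ddit4*, *Sesn2* and *Ppp1r15a* lie left of 0.05 (dotted) throughout. *Atf4*, *Trib3*, *Ddit3* and *Asns* against control, and *Atf4*, *Trib3*, *Asns* and *Chac1* against MFN1-KD, have settings on both sides of it.

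Genes with a pattern like that of *Ddit4* were sought among 5933 genes averaging 10 FPKM or more, by Pearson's r of log2(FPKM + 1) over the 9 libraries. The libraries of a group share their treatment, so these r values mainly describe a level in H3.3-KD apart from the rest, and no p is attached. The first 5 were *Zfp574* (r = 0.994), *Dtx2* (0.992), *Pom121* (0.990), *Rbm14* (0.990) and *Gm7104* (0.989). All 5 averaged under 10 FPKM in control and in MFN1-KD, so they met the limit of 10 FPKM only through H3.3-KD, as did *Sesn2*. The limit thus favoured the pattern that was sought. *Zfp574* averaged 44.0 FPKM in H3.3-KD beside 2.94 in control, with 5.02 in MFN1-KD. Of the members, *Sesn2* came nearest (r = 0.972, rank 87), then *Ppp1r15a* (0.917). For *Atf4*, with its 3 separate levels, the first 5 were *Ttc4* (0.985), *Metap1* (0.984), *Cdca7* (0.983), *Bzw2* (0.979) and *Sox15* (0.978). *Metap1* averaged 89.7 FPKM in H3.3-KD beside 63.0 in control, with 39.1 in MFN1-KD. *Ddit3* did not follow *Atf4* (r = -0.01).

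The wider pathway was described with hand-written lists, by counts and medians, without a test of the list. The counts stand beside 21.8% of all genes higher and 9.12% lower in H3.3-KD, and beside 27.6% higher between the knockdowns. For MFN1-KD the shares were 1.15% and 2.2%. A list share near these is no result about the list. In the list of eIF2alpha kinases, eIF2, eIF2B and phosphatase subunits, 22 genes were tested, and in H3.3-KD 3 were higher (13.6%) and 2 lower (9.09%), with a median of 0.03. Beside *Ppp1r15a* these were the phosphatase catalytic subunit gene *Ppp1cc* and the heme-regulated kinase gene *Eif2ak1* on the higher side, and *Eif2s2* (the beta subunit of eIF2) and *Impact* (an inhibitor of GCN2) on the lower. *Eif2s2* fell from a mean of 1527 FPKM in control to 774 in H3.3-KD (log2 difference -0.98 ± 0.17, adjusted p = 0.0023). In MFN1-KD 2 were higher and 0 lower, both catalytic subunits: *Ppp1cb* rose from 44.7 to 129 FPKM (1.50 ± 0.26, adjusted p = 0.0333) and *Ppp1cc* from 384 to 906 (1.23 ± 0.26, adjusted p = 0.0409).

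Of ATF4 partners and stress regulators, a list that holds most of the members themselves, 14 were tested, of which H3.3-KD had 6 higher (42.9%) and 0 lower, with a median of 0.92. They were *Ddit4*, *Sesn2*, *Trib3*, *Cebpb*, *Cebpg* and *Vegfa*. *Cebpb*, which encodes a dimer partner of ATF4, stood at 0.23, 0.40 and 0.41 FPKM in control, 26.1, 21.5 and 39.2 in H3.3-KD and 0.62, 1.34 and 0.66 in MFN1-KD. Only the H3.3-KD libraries were above 2 FPKM. *Cebpb* and *Vegfa* averaged under 1 FPKM over control and MFN1-KD and thus passed the filter only through H3.3-KD, as did *Chac1*, and of the other 11 genes 4 were higher and 0 lower, with a median of 0.83. Of these 4, *Ddit4*, *Sesn2* and *Trib3* are the members already described, and only *Cebpg* is new. *Nupr1*, *Herpud1*, *Ero1l*, *Stc2* and *Eif4ebp1* were not called. The share of this list is therefore no result apart from the members. No gene of the list passed in MFN1-KD, where the median was 0.47.

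Amino acid synthesis and transport genes under ATF4 were higher in 5 of 15 (33.3%) and lower in 0 of 15 in H3.3-KD, with a median of 0.84. *Slc6a9*, a glycine transporter among the 5, passed the filter only through H3.3-KD, and of the other 14 genes 4 were higher and 0 lower, with a median of 0.81. *Slc7a5*, the leucine transporter subunit LAT1, rose from 3.06 to 39.5 FPKM (3.26 ± 0.45, adjusted p = 6.1e-04). *Phgdh*, the entry enzyme of serine synthesis, stood at 42.2, 23.9 and 22.4 FPKM in control, 121, 152 and 181 in H3.3-KD and 7.99, 10.9 and 9.32 in MFN1-KD. In the reported fit it was the only gene of the lists, in its 3 separate levels, that passed in both knockdowns in opposite directions. The log2 differences were 2.36 ± 0.30 in H3.3-KD (adjusted p = 4.3e-04) and -1.50 ± 0.30 in MFN1-KD (adjusted p = 0.0359). The call in MFN1-KD depended on the setting: no gene at all passed there when only the 6 libraries compared were fitted, or without control replicate 2 or 3. The median of the list in MFN1-KD was -0.45, with 0 genes higher. Between the knockdowns 11 of 15 (73.3%) were higher in H3.3-KD, *Asns* among them, and 10 of 14 without *Slc6a9*. Of 13 aminoacyl-tRNA synthetases and related genes, H3.3-KD had 4 higher (30.8%) and 1 lower (7.69%), and the median of 0.28 was near that of all genes. *Aars* rose from 9.93 to 38.4 FPKM (1.89 ± 0.33, adjusted p = 0.0022) and *Wars* from 8.80 to 33.3 (1.83 ± 0.34, adjusted p = 0.0032), whereas *Lars* fell from 41.9 to 15.9 (-1.41 ± 0.48, adjusted p = 0.0472). None passed in MFN1-KD.

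**Figure D5:**
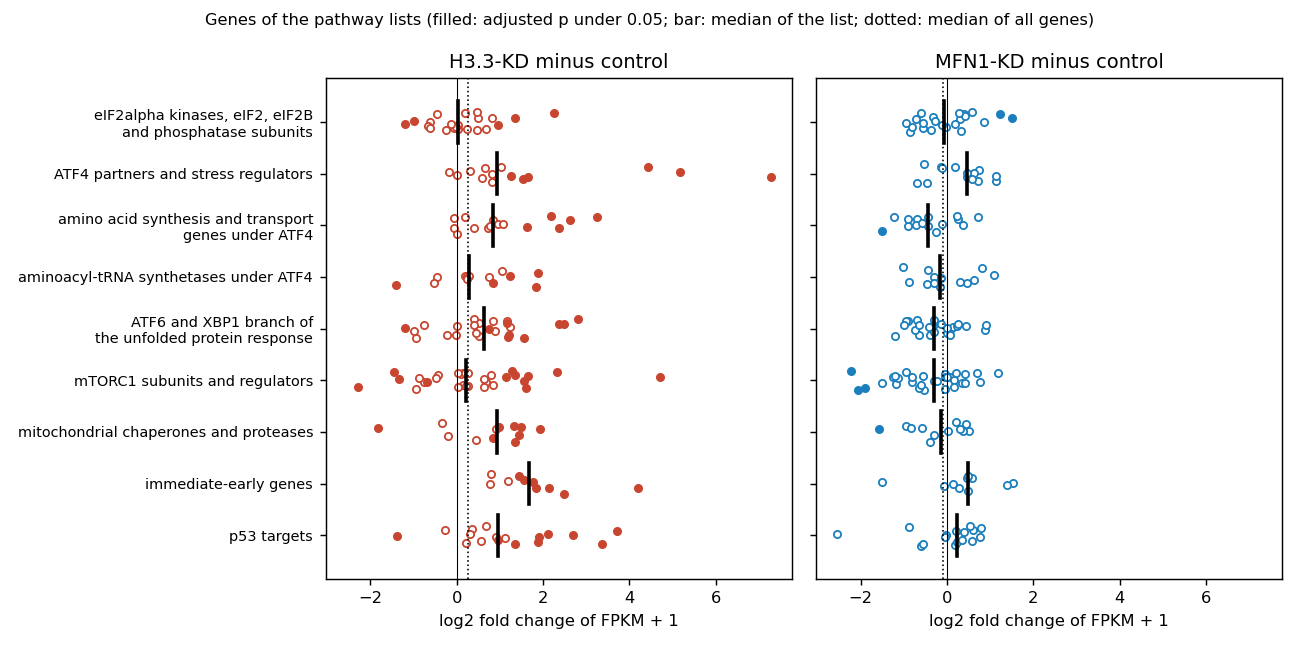
Log2 fold change of FPKM + 1 of each tested gene of the 9 lists in H3.3-KD minus control (red) and MFN1-KD minus control (blue), filled where the adjusted p was under 0.05, with the list median as a black bar and the median of all genes as a dotted line. In H3.3-KD filled points lie mostly to the right, with the eIF2 list (3 right, 2 left) and the mTORC1 list (8 right, 4 left) the most mixed, and in MFN1-KD few points are filled.

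The branches next to the response were described in the same way. In the ATF6 and XBP1 branch of the unfolded protein response, H3.3-KD had 8 of 24 genes higher (33.3%) and 1 lower, with a median of 0.64. Without 2 genes that passed the filter only through H3.3-KD, 8 of 22 were higher and 1 lower. *Syvn1*, a ubiquitin ligase of the endoplasmic reticulum, rose from 1.34 to 12.0 FPKM (2.48 ± 0.30, adjusted p = 3.5e-04) and *Atf6b* from 1.46 to 16.1 (2.81 ± 0.37, adjusted p = 5.3e-04), while *Manf* fell from 204 to 89.9 (-1.20 ± 0.41, adjusted p = 0.0465). Of 12 mitochondrial chaperones and proteases, H3.3-KD had 7 higher (58.3%) and 1 lower, with a median of 0.94. *Hspa9*, the mitochondrial HSP70, rose from 78.1 to 195 FPKM (1.33 ± 0.24, adjusted p = 0.0027), and *Hspe1*, the co-chaperonin HSP10, fell from 118 to 33.7 (-1.81 ± 0.39, adjusted p = 0.0058). In MFN1-KD 0 of the 24 and 0 of the 12 were higher, and 1 mitochondrial protease subunit, *Clpp*, was lower (141.6 to 50.3 FPKM, -1.58 ± 0.36, adjusted p = 0.0470).

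The mTORC1 subunits and regulators, on which *Ddit4* and *Sesn2* act, went both ways in H3.3-KD: 8 of 31 were higher (25.8%) and 4 lower (12.9%), both near the share over all genes, with a median of 0.22. Without 1 gene that passed the filter only through H3.3-KD, 8 of 30 were higher and 4 lower. *Akt1s1*, the mTORC1 inhibitor PRAS40, stood at 3.44, 2.88 and 2.01 FPKM in control, 81.0, 110 and 102 in H3.3-KD and 3.90, 2.59 and 1.67 in MFN1-KD. MFN1-KD overlapped control and H3.3-KD was far above both (4.72 ± 0.32, adjusted p = 2.0e-05). *Lamtor5*, a subunit of the lysosomal Ragulator scaffold, fell from 329 to 65.6 FPKM in H3.3-KD (-2.29 ± 0.25, adjusted p = 2.1e-04). In MFN1-KD 0 were higher and 3 lower, the Ragulator genes *Lamtor1* (89.6 to 20.8 FPKM, -2.23 ± 0.40, adjusted p = 0.0333) and *Lamtor3* (56.9 to 15.2, -1.91 ± 0.36, adjusted p = 0.0343) and the GATOR2 gene *Sec13*. Calls in MFN1-KD were few and moved with the setting: 436 of all genes passed in the reported fit and 0 when only its 6 libraries were fitted.

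Because *Atf3*, *Ddit4* and *Sesn2* also answer to other stress pathways, immediate-early genes and p53 targets were listed too. Of 17 immediate-early genes 10 were tested, of which H3.3-KD had 7 higher (70.0%) and 0 lower, with a median of 1.67. *Fos* and *Junb* passed the filter only through H3.3-KD, and of the other 8 genes 6 were higher and 0 lower. *Jund* rose from 0.820 to 33.2 FPKM (4.20 ± 0.40, adjusted p = 1.4e-04) and *Dusp1*, a MAP kinase phosphatase, from 3.34 to 14.4 (1.83 ± 0.39, adjusted p = 0.0057). Of 17 p53 targets, 8 were higher (47.1%) and 1 lower, with a median of 0.96. *Bbc3*, the death gene PUMA, averaged 0.233 FPKM in control and 12.3 in H3.3-KD. It passed the filter only through H3.3-KD, as did *Zmat3*, and of the other 15 genes 6 were higher and 1 lower, with a median of 0.90. *Plk2* rose from 6.35 to 49.8 FPKM (2.69 ± 0.37, adjusted p = 6.1e-04), while *Trp53inp1* fell from 15.8 to 5.41 (-1.39 ± 0.48, adjusted p = 0.0486). None of these 27 genes passed in MFN1-KD.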

How the data were processed

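Poly(A) RNA of pooled embryos was amplified by Smart-Seq2 and sequenced in pairs. The authors trimmed reads with cutadapt 1.16 and aligned them to mm10 with STAR, and deposited FPKM rounded to 2 decimals. The program that made the FPKM, its annotation and strand setting are not given in the sources used here. Reads shared between overlapping genes could therefore not be told apart.

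With limma 3.58.1 (R 4.3.3), log2(FPKM + 1) of the 9 libraries was fitted on group alone, using its trend and robust options, for 13011 entries averaging 1 FPKM or more. P-values were adjusted by Benjamini-Hochberg. The authors' own count test could not be run on FPKM. For single genes, exact permutation tests (two-sided) were added. The pipeline was tested on simulated data. Positions, lengths and GC content came from GENCODE M21, and start windows from RefSeq.

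The members and lists were chosen with earlier results of these data known. Named were all members, up to 2 genes with the smallest p in each list and comparison plus the strongest in the opposite direction, and 5 genes of like pattern. *Cebpg*, *Vegfa*, *Eif2ak1*, *Impact* and *Sec13* were named, beyond this rule, to complete short counts after their values were seen, and marker genes, *Slc6a9*, *Zmat3*, *Fos* and *Junb* to describe the libraries and the filter. As alternatives the libraries were rescaled by median ratios or upper quartiles, the filter was dropped or raised to 10 FPKM, the pseudocount was set to 0.1, the third group was left out of the fit, replicate numbers entered as a block, libraries were weighted, trends over GC content and length were removed within libraries, and single libraries were left out. Counts without genes that passed the filter only through H3.3-KD were added after seeing the data.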

Additional observations from a re-analysis of the deposited data

Results flagged for a closer look

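*Ddit3* stood on a second entry in the files, which the report does not use. It was listed at 0 in 8 of the 9 libraries and at 1.40 FPKM in MFN1-KD replicate 1, a value above the 0 of the control libraries on an entry left out of the comparisons. How many fragments it rests on is not known, and the difference was not tested.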

How the results depend on the processing

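The log2 differences were recomputed under 9 other settings and with each of the 9 libraries left out, except that *Trib3*, *Chac1* and *Eif2ak3* have no value at a mean of 10 FPKM or more. With library weights 7 members were higher in H3.3-KD than in control, the others being *Atf4*, *Ddit3* and *Asns*, and 1 member, *Ddit4*, was higher in MFN1-KD. That setting called more of all 13011 genes higher than control: 4734 in place of 2841 in H3.3-KD, and 570 in place of 150 in MFN1-KD. The number of members higher in H3.3-KD was between 3 and 5 with a library left out, that in MFN1-KD stayed at 0, and that in H3.3-KD against MFN1-KD lay between 5 and 6. No member was lower in any setting. Leaving out *Chac1*, which passed the filter only through H3.3-KD (chosen after seeing the data), left the counts of members called as they were. The sign turned for *Trib3* in MFN1-KD, from -0.13 to 0.23 with library weights, 0.17 with the GC and length trend removed and 0.33 without MFN1-KD replicate 3 (range with a library left out, -0.55 to 0.33). It also turned for *Ddit3* between the knockdowns, from 0.28 to -0.11 with median-ratio scaling, -0.17 with upper-quartile scaling, -0.081 when H3.3-KD replicate 2 was left out and -0.021 when MFN1-KD replicate 1 was (range with a library left out, -0.081 to 0.60). The causes were not tested. *Ddit3* has no value with the GC and length trend removed, since its symbol stands on 2 entries. Libraries of the same replicate number had correlations of their deviations between -0.05 and 0.16, and those of different numbers between -0.12 and 0.07. These values do not settle whether replicate numbers pair the libraries. With the replicate number as a block, H3.3-KD had 4 members higher than control and 6 higher than MFN1-KD, and MFN1-KD had 0 higher than control, as in the fit without it. Of all genes, 31 passed in MFN1-KD against control with the block and 436 without it. The limits are 3 libraries a group, depth known only by estimate, and FPKM in place of counts, so that *Atf3* and *Chac1* could not be resolved.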
